A study of Cyanidioschyzon merolae with 8 samples.

Results

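A group of 130 genes of the red alga Cyanidioschyzon merolae had lower transcript levels under red light than in its dark control, and nearly level values under blue light. They were 130 of 4793 nuclear gene IDs, and of 5092 IDs in all, in the authors' deposited table. The rule took nuclear IDs with at least 20 FPKM in both dark controls and a value above 0 under both lights, which left 4063 eligible genes. A member was at least 2.38-fold lower under red light than in its dark control. Its log2 ratio of blue light over its own dark control lay between -0.5 and 0.5, within 1.41-fold. The members were therefore chosen by the very values that describe their light responses, and those values are given as a description. FPKM is the number of sequenced fragments scaled by transcript length and by all mapped fragments of the library.

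Wild-type cells of strain 10D were sequenced in 8 libraries, 2 biological replicates in each of 4 groups. Cells given blue light for 30 min, at 15 µmol m-2 s-1, had been kept dark for 36 h. Their dark control stayed without light. Cells of the other experiment were dark-kept, then lit red for 30 min; neither their time in the dark nor the light intensity is stated in the labels, and they had a dark control of their own. As the wavelength of measurement, the labels give 365 nm for the blue light and 630 nm for the red light. All cultures were first grown at 42 °C and pH 2.3, with constant illumination at 100 µmol m-2 s-1. The deposited table holds 1 value per condition with the replicates already combined, so no spread between replicates can be given and no test on the libraries was made. Sequencing depth is unknown. Calls of change are those of the authors' deposited table, at a q-value under 0.05.

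C. merolae is a unicellular alga of hot acidic springs with a single nucleus, plastid and mitochondrion per cell. In plants, red light is sensed by phytochromes and blue light by cryptochromes and other flavin-binding receptors; both lights also drive photosynthesis. The amount of a transcript reflects the balance of its synthesis and its decay. FPKM is a share of each library, so less of a transcript cannot be told apart from more of the others, and fewer transcribing cells cannot be told apart from less RNA per cell. The files and the reference table pair no member with a gene description, so members are given by their IDs and no role is stated for them. The exceptions are 4 members that lie at positions of ribosomal RNA genes.

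Of 4063 eligible genes, 472 were at least 2.38-fold lower under red light. Of these, 336 were also lower under blue light by more than 0.5 on the log2 scale, 6 were higher by more than 0.5, and the remaining 130 are the members. The members were 7.82% of the 1663 eligible genes that were flat under blue light, and the 472 genes were 11.6% of the eligible ones. The same bounds turned round, raised by red light and flat under blue, held for 37 genes. The reverse pair, lowered by blue light and flat under red, held for 62 genes. Below the minimum of 20 FPKM another 16 nuclear genes met both ratio bounds.

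**Figure D1:**
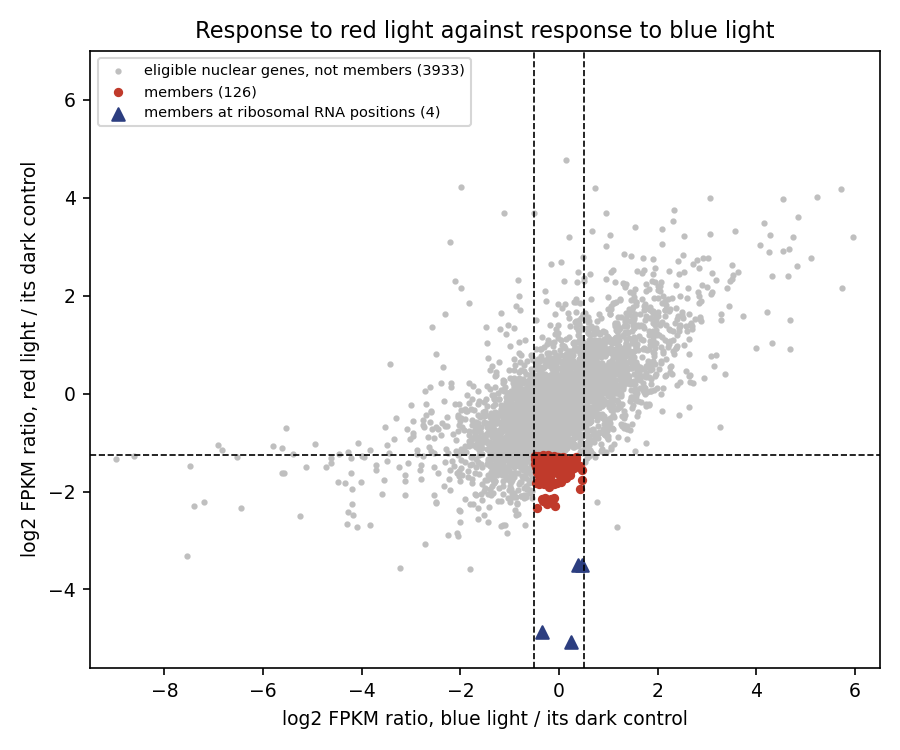
Log2 FPKM ratio under red light (vertical axis) against that under blue light (horizontal axis) for the 4063 eligible nuclear genes, 1 point per gene; dashed lines are the bounds of the rule. The 126 other members (red points) lie close under the lower bound, whereas the 4 members at ribosomal RNA positions (blue triangles) lie between -3.50 and -5.07.

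Among the 130 members, the median level was 60.3 FPKM under blue light and 65.5 FPKM in its dark control. It was 41.0 FPKM under red light and 117 FPKM in the dark control of red. The 4 medians show that members were at their highest in the dark of the red experiment and at their lowest under red light. The dark control of red was the highest of the 4 values in 125 of 130 members, against 42.5% of the eligible genes. It was also the highest in 119 of 148 genes lowered at least 2.38-fold by both lights, 80.4%. Red light was the lowest in 119 members, against 26.3% of the eligible genes. Both held for 114 members, 87.7%, against 249 of 1533 eligible genes that were flat under blue light but not members, 16.2%. The rule favours this order by its own bounds.

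**Figure D2:**
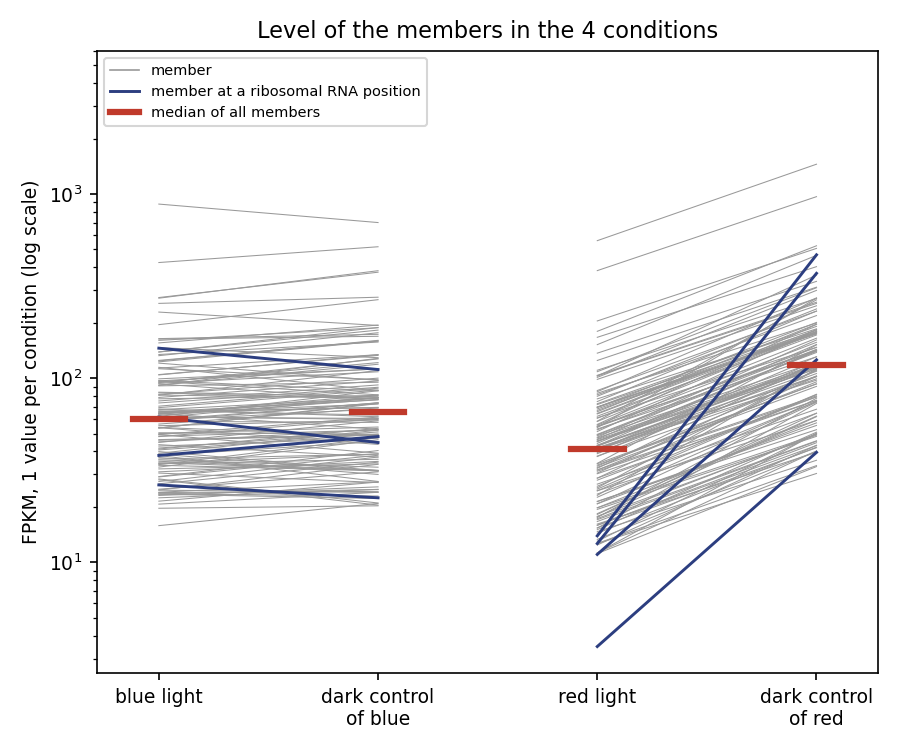
FPKM of the 130 members (log axis) in the 4 conditions, with a line joining each light to its own dark control; red bars are medians. Lines of the blue experiment run nearly level around medians of 60.3 and 65.5 FPKM, and lines of the red experiment slope between medians of 41.0 FPKM under red light and 117 FPKM in the dark.

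The median red log2 ratio of the members was -1.48, a 2.80-fold lower level, with quartiles of -1.68 and -1.34. At least 4-fold lower levels were found in 12 members, and 85 members were less than 3-fold lower. Over all 4063 eligible genes the median was -0.32. The authors' deposited table calls 129 of the 130 members lower under red light, where 27.1% of 4447 tested IDs were called lower. As this contrast chose the members, the count is a description. CMA080C was the exception, with 14.7 FPKM under red light and 35.8 FPKM in its dark control, a log2 ratio of -1.29 and q = 0.0789 in that table. The smallest p-value in the red comparison, 5e-05, is shared by 102 members, so the authors' p-values do not rank them.

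Under blue light the authors' deposited table calls 0 of 128 tested members changed at a q-value under 0.05, against 40.6% of 4517 tested IDs changed in either direction. None of the 128 had an unadjusted p-value under 0.05, and the smallest in that table was 0.101, for CMD057C. The flat blue ratio was a condition of the rule, and a p-value that misses the threshold does not show equal levels. CMG025C and CMB037C, named after their values were seen, were not tested under blue light by the authors. Both had low levels there. CMG025C stood at 15.8 FPKM under blue light and 20.9 FPKM in its dark control, and CMB037C at 19.7 FPKM under blue light and 20.3 FPKM in its dark control. Within the window of the rule, 90 members had a blue ratio below 0 and 40 above, with a median of -0.19, against -0.03 for all 1663 genes flat under blue light.

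The 4 steepest ratios belonged to IDs that lie between the same neighbouring genes as ribosomal RNA entries of RefSeq assembly ASM9120v1 and have loci of nearly the same length. Ribosomal RNA forms the core of the ribosome; it carries no poly(A) tail, and the libraries were made from RNA bound to oligo(dT) beads. EPlCMEG00000000070, on chromosome 17 at 782634 to 786206, had 13.9 FPKM under red light and 468 FPKM in its dark control, against 26.3 FPKM under blue light and 22.4 FPKM in its dark control. EPlCMEG00000000047, on chromosome 18 at 500241 to 503815, had 12.6 FPKM under red light and 371 FPKM in its dark control, against 38.0 FPKM under blue light and 48.2 FPKM in its dark control. In both long loci the dark control of red was far above the other 3 values.

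The shorter loci of this kind had another pattern. EPlCMEG00000000089, on chromosome 17 at 1042283 to 1044075, had 11.0 FPKM under red light and 126 FPKM in its dark control, against 146 FPKM under blue light and 111 FPKM in its dark control. EPlCMEG00000000057, on chromosome 17 at 788901 to 790695, had 3.49 FPKM under red light and 39.5 FPKM in its dark control, against 61.5 FPKM under blue light and 44.7 FPKM in its dark control. Here red light was far below 3 values that lay close to each other. The log2 ratios of the 4 loci under red light were -5.07, -4.87, -3.51 and -3.50, each with q = 0.00045 in the authors' deposited table. RefSeq lists several ribosomal RNA copies of like length, so reads may be shared between loci and the values of single copies are uncertain. Of 9 IDs at such positions, the other 5 were not eligible, and 3 of these were listed at 0 in all conditions. EPlCMEG00000000061 and EPlCMEG00000000086 are named here after their values were seen. EPlCMEG00000000061 had at most 0.58 FPKM. EPlCMEG00000000086, of 3566 bp, had 1.15 FPKM under red light and 23.3 FPKM in its dark control. In the blue experiment it had 0.53 FPKM under blue light and 1.86 FPKM in the dark, below the minimum of the rule. The part of ribosomal RNA carry-over in the libraries in the levels of the other members was not tested. The other 126 members had a median red log2 ratio of -1.47 and a lowest one of -2.33.

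Among those 126, the lowest red ratios were those of CMR291C, CMK017C, CMT347C, CMO059C, CMQ407C and CMS207C, each with q = 0.00045 in the authors' deposited table. CMR291C, on chromosome 18 at 701238 to 703302, had 53.9 FPKM under red light and 272 FPKM in its dark control, a log2 ratio of -2.33. Its levels in the blue experiment were 53.6 FPKM under blue light and 73.4 FPKM in the dark. CMO059C, on chromosome 15 at 159879 to 161715, had 58.4 FPKM under red light and 266 FPKM in its dark control, against 58.4 FPKM under blue light and 73.4 FPKM in its dark control. CMR291C and CMO059C thus had like levels under both lights and differed between the dark controls. CMK017C, on chromosome 11 at 40045 to 46555, was of the same kind, with 23.1 FPKM under red light and 113 FPKM in its dark control, against 23.5 FPKM under blue light and 24.9 FPKM in its dark control.

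The other genes of the 6 moved on both sides of the blue values. CMT347C, on chromosome 20 at 871339 to 875329, had 15.3 FPKM under red light and 73.0 FPKM in its dark control, against 38.0 FPKM under blue light and 45.3 FPKM in its dark control. CMQ407C, on chromosome 17 at 1058781 to 1064988, had 11.3 FPKM under red light and 50.3 FPKM in its dark control, against 21.5 FPKM under blue light and 27.3 FPKM in its dark control. CMS207C, on chromosome 19 at 539183 to 541409, had 17.5 FPKM under red light and 77.8 FPKM in its dark control, against 34.4 FPKM under blue light and 38.8 FPKM in its dark control. In these genes the dark control of red stood above, and red light below, both values of the blue experiment.

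The members were therefore sorted by where their red-experiment values lay relative to the mean log2 level of the blue experiment, with 0.5 on the log2 scale as the bound. In 59 members the dark control of red was above that level and red light below it. In 43 members the dark control alone was above, and in 28 members red light alone was below. Medians of the 43 were 54.5 FPKM under red light and 172 FPKM in its dark control, against 58.4 FPKM under blue light and 73.4 FPKM in its dark control. Those of the 28 were 39.3 FPKM under red light and 114 FPKM in its dark control, against 93.4 FPKM under blue light and 87.3 FPKM in its dark control. Among the 1533 flat genes that were not members, 8 had both shifts, 427 the raised dark control alone, 377 the lowered red light alone and 721 neither. The rule largely sets this contrast with the members. Both shifts together need a red ratio near the red bound, and every flat gene that meets that bound is a member. Only flat genes just short of the bound could thus have both shifts as non-members. No member could have neither shift, because shifts within 0.5 cannot add up to the red ratio of a member. Such sorting rests on values that also enter the rule, and on 2 experiments for which no common scaling is stated.

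**Figure D3:**
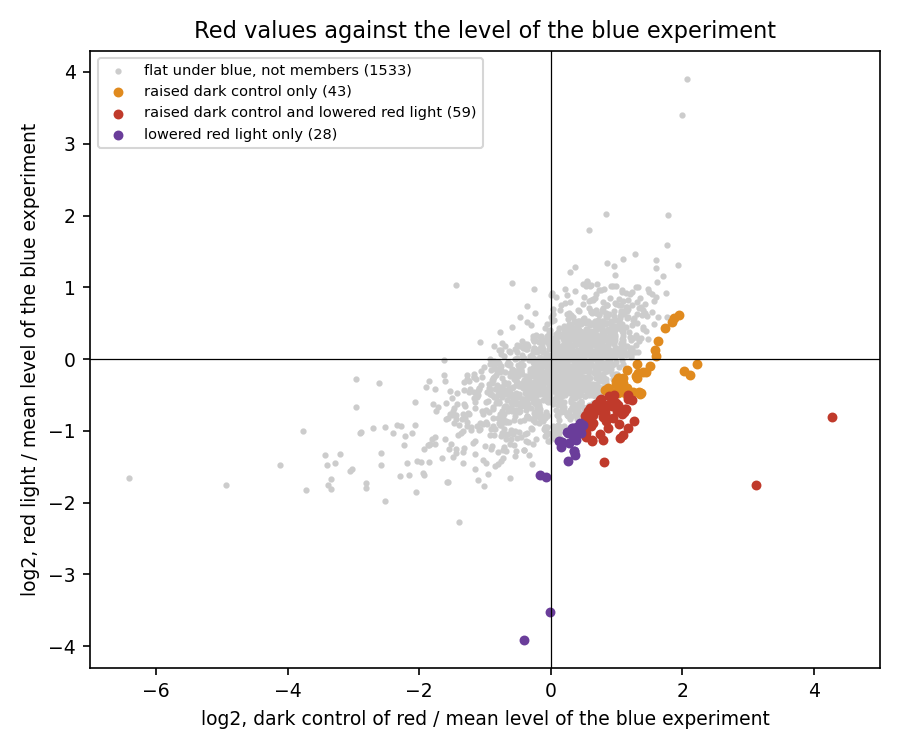
Log2 position of red light (vertical axis) against that of the dark control of red (horizontal axis), each relative to the mean log2 level of the same gene in the blue experiment, for genes flat under blue light. Members lie to the lower right, where the red bound of the rule places them: 43 with a raised dark control only, 59 with both shifts and 28 with lowered red light only.

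Set directly against each other, the dark control of red was higher than that of blue in 126 of 130 members, by a median of 0.79 on the log2 scale, which is 1.73-fold. Over all 4063 eligible genes it was higher in 2396, 59.0%, with a median of 0.18. Other sets cut from the same ratios shared this trait: it was higher in 94 of 103 genes raised by blue light and flat under red, with a median of 0.83, and in 119 of 148 genes lowered by both lights, with a median of 0.60. At least 2-fold higher levels in the dark control of red were found in 41 members, 31.5%, and in 10.5% of the eligible genes. Red light was lower than blue light in 119 of 130 members, with a median log2 difference of -0.64, against 56.7% and a median of -0.13 over the eligible genes. It was also lower in 90 of the 103 genes raised by blue light and flat under red, with a median of -0.79, and in 31 of the 37 raised by red light and flat under blue, with a median of -1.13. At least 2-fold lower levels under red light than under blue light were found in 26 members, 20%, and in 12.7% of the eligible genes. Neither difference has a test, and the difference between the lights cannot be told apart from that between the experiments.

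Members were long genes, a property that the rule did not use. Their loci had a median length of 2705 bp, from 193 to 8712 bp with quartiles of 1884 and 4065 bp, against a median of 1297 bp for the 1533 flat genes that were not members. Loci of at least 3000 bp made up 41.5% of the members and 9.07% of the flat non-members, and loci of at least 5000 bp 14.6% and 1.30%. Loci under 1000 bp made up 8.46% of the members and 33.5% of the flat non-members. A median length above that of the eligible genes was not particular to the members. The 148 genes lowered by both lights had a median locus of 1928 bp, against 1308 bp for all eligible genes. Loci of at least 3000 bp made up 12.8% of those 148 genes and 9.28% of the eligible ones. Loci under 1000 bp made up 9.46% and 33.5%. Loci of at least 5000 bp made up 0.68% of the 148 genes and 1.58% of the eligible ones, so the members' larger share was not found there. Over all 4063 eligible genes, Spearman's rho between locus length and the red log2 ratio was -0.34. A coding length was known from RefSeq for 125 members, and its median was 2706 bp, with a locus within 10 bp of it in 118. Locus length and coding length were thus nearly the same quantity for these genes.

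When the 1663 eligible genes flat under blue light were divided into 10 classes of equal size by locus length, the share of members was 1.81% in the shortest class, of 156 to 570 bp. It stayed between 1.20% and 4.79% up to 1918 bp. It was then 9.04% in the class of 1918 to 2340 bp, 16.9% in that of 2343 to 3198 bp and 31.7% in the longest, of 3200 to 10453 bp, where 53 of 167 genes were members. The genes raised by red light and flat under blue ran the other way, with 13 of 37 in the shortest class and 1 in the 3 longest. The median red log2 ratio of all flat genes was 0.17 in the shortest class and -0.98 in the longest. Their median blue log2 ratios were -0.08 in the shortest class and -0.07 in the longest. The blue window of the rule keeps these medians near 0 at any length. Over all 4063 eligible genes, to which that window was not applied, Spearman's rho between locus length and the blue log2 ratio was -0.002.

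**Figure D4:**
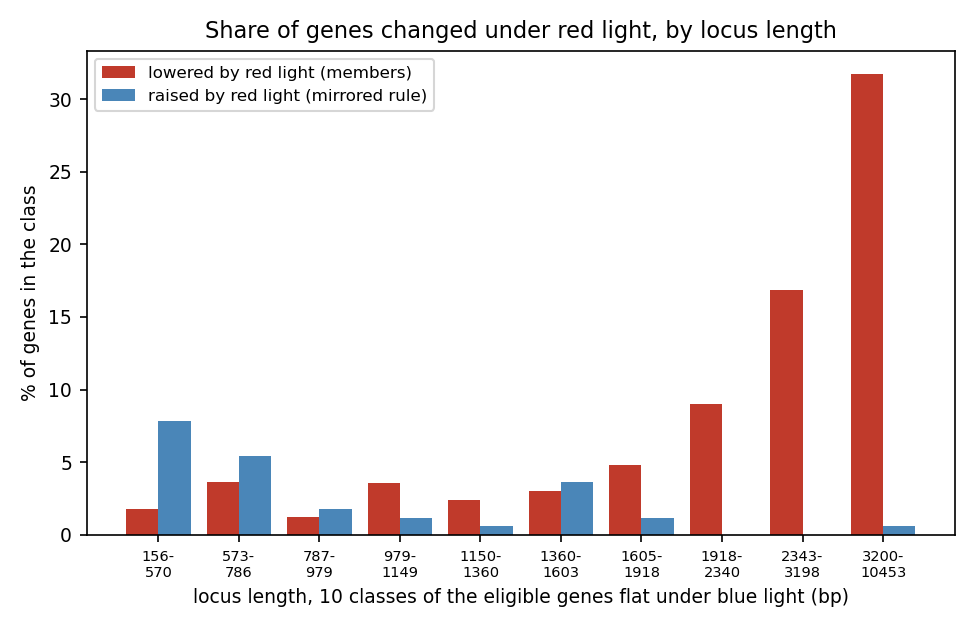
Share of genes lowered by red light (red bars, members) and raised by red light under the mirrored bounds (blue bars) in 10 locus length classes (bp) of the 1663 eligible genes flat under blue light. The red bars reach 31.7% in the longest class and 1.81% in the shortest, and the blue bars are at 7.83% in the shortest class.

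Of the 832 longer flat genes 109 were members, and of the 831 shorter ones, up to 1360 bp, 21. The median of the shorter members was 152 FPKM in the dark control of red and 73.5 FPKM in that of blue, against 143 and 135 FPKM for the other short genes. The median of the longer members was 113 FPKM in the dark control of red and 60.4 FPKM in that of blue, against 108 and 91.3 FPKM for the other long genes. In both length groups the median of the members was below that of the other genes in the dark control of blue and above it in that of red. The dark control of red is the divisor of the red ratio that chose the members. The rule thus favours higher values there, and the order is a description. The 10 narrower classes did not all show this order. In the class of 2343 to 3198 bp, the median of 28 members was 83.2 FPKM in the dark of the blue experiment, against 69.0 FPKM for the others. In the class of 156 to 570 bp, 3 members had 383 FPKM there, against 204 FPKM. In the class of 573 to 786 bp, 6 members had 124 FPKM in the dark control of red, against 165 FPKM for the others. In the class of 979 to 1149 bp, 6 members had 124.7 FPKM in the dark control of red, against 125.0 FPKM. Among the 130 members themselves, Spearman's rho across genes between locus length and the red log2 ratio was -0.26. It was -0.35 between length and the log2 difference of red light from blue light, and -0.07 between length and that of the dark controls. The members are cut on a ratio built from these values, and the wider sets differed. Over the 1663 flat genes rho was -0.20 for the lit difference and 0.22 for that of the dark controls. Over the 4063 eligible genes it was -0.14 and 0.20. Genes of 1 table share their libraries and are not replicates.

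With the running median of the red ratio over length removed, 65 genes met the rule, of which 51 were members. The 10 members with the lowest red ratios all still met it, for example CMR291C at -2.22 and CMO059C at -2.02. CMK265C, the member with the longest locus, no longer did, with a ratio of -1.21. What part length has in the ratios of single genes was not tested further.

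CMK265C spans 8712 bp on chromosome 11 at 721169 to 729880 and had 32.4 FPKM under red light and 122 FPKM in its dark control, against 65.7 FPKM under blue light and 76.2 FPKM in its dark control. CMR018C spans 8214 bp on chromosome 18 at 48580 to 56793, with 21.4 FPKM under red light and 55.4 FPKM in its dark control, against 20.7 FPKM under blue light and 24.0 FPKM in its dark control. CML232C spans 7873 bp on chromosome 12 at 585688 to 593560, with 25.4 FPKM under red light and 111 FPKM in its dark control, against 41.7 FPKM under blue light and 51.1 FPKM in its dark control. All of these very long genes were below the medians of the eligible genes in the blue experiment, 110 FPKM under blue light and 117 FPKM in its dark control, and CMR018C had nearly the same level under both lights.

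The shortest members were CMN308C, CMN204C and CMD057C. CMN308C spans 193 bp on chromosome 14 at 756552 to 756744, and was the most abundant member in the dark control of red. It had 558 FPKM under red light and 1452 FPKM in its dark control, against 425 FPKM under blue light and 517 FPKM in its dark control. FPKM of loci this short depends strongly on how fragment lengths were treated. CMN204C, of 417 bp, had 125 FPKM under red light and 312 FPKM in its dark control, against 164 FPKM under blue light and 173 FPKM in its dark control. CMD057C, of 484 bp, differed in kind, with 167 FPKM under red light below 3 other values: 403 FPKM in its dark control, 272 FPKM under blue light and 383 FPKM in the dark control of blue. It was also lower under blue light, with a log2 ratio of -0.496, the lowest of the members and just inside the window.

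Most members were of moderate or low abundance. In the dark control of blue, 98 of 130 were under 100 FPKM, and the median of 65.5 FPKM compares with 117 FPKM for all eligible genes. Under red light 31 members were below 20 FPKM, and the lower quartile was 20.9 FPKM for the members and 66.4 FPKM for the eligible genes. The dark control of red put 25 members, 19.2%, above 200 FPKM, where the upper quartile of the eligible genes was 236 FPKM. The medians lay closer in the dark control of red, at 117 FPKM for the members and 134 FPKM for the eligible genes. After CMN308C the most abundant there was CMM227C, with 384 FPKM under red light and 968 FPKM in its dark control, against 882 FPKM under blue light and 700 FPKM in its dark control. In CMM227C red light was below all other values and the dark controls were within 1.5-fold of each other. CMQ038C was at 180 FPKM under red light and 524 FPKM in its dark control, against 160 FPKM under blue light and 188 FPKM in its dark control. CME181C had 205 FPKM under red light and 507 FPKM in its dark control, against 195 FPKM under blue light and 267 FPKM in its dark control. In CMQ038C and CME181C only the dark control of red stood out. CME108C had 152 FPKM under red light and 464 FPKM in its dark control, against 274 FPKM under blue light and 376 FPKM in its dark control.

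The members lay on all 20 nuclear chromosomes. Their share of the eligible genes flat under blue light ran between 1.82% on chromosome 3, with 1 of 55, and 12.9% on chromosome 14, with 11 of 85. Chromosome 18 held the most members, 14 of 141. Adjacent IDs were both members in 7 places, 1 of which is the pair of ribosomal RNA positions EPlCMEG00000000070 and EPlCMEG00000000057. CMS402C and CMS403C on chromosome 19 were the closest, 104 bp apart, with red log2 ratios of -1.81 and -1.80. CMS402C had 17.7 FPKM under red light and 61.8 FPKM in its dark control, and CMS403C 56.1 FPKM under red light and 196 FPKM in its dark control. Their ratios agreed although their levels differed about 3-fold.

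The other adjacent pairs were CMB095C with CMB097C, CMG009C with CMG010C, CMH109C with CMH110C, CMP019C with CMP021C, and CMT185C with CMT186C. CMG009C and CMG010C on chromosome 7 had red log2 ratios of -1.33 and -1.30. CMG009C had 47.4 FPKM under red light and 119 FPKM in its dark control, against 32.1 FPKM under blue light and 34.3 FPKM in its dark control. CMG010C had 110 FPKM under red light and 271 FPKM in its dark control, against 83.9 FPKM under blue light and 79.3 FPKM in its dark control. Both genes of this pair were higher under red light than under blue light, which 11 of the 130 members were. CMT185C and CMT186C on chromosome 20 lie 484 bp apart, with red log2 ratios of -1.35 and -1.46, and CMT186C was 1 of 4 members lower in the dark control of red than in that of blue. RefSeq gives CMT185C a coding length of 2799 bp, longer than its deposited locus of 1882 bp, and has no entry for CMT186C. Whether both IDs belong to the same gene was not tested. The labels name no step that marks strand, so reads of neighbouring or overlapping genes may not be told apart.

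The genes next to members were also described. Neighbours that met the rule count as members and are left out here, so a comparison of the neighbours with the members is set by the rule. Of 242 distinct non-member neighbours, 204 were eligible, with a median red log2 ratio of -0.43 and a median locus of 1276 bp, against -0.28 and 1291 bp for the other 3729 eligible non-members. The authors' deposited table calls 31.9% of these neighbours lower under red light and 26.4% of the other eligible non-members.

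For 7 members the deposited locus is shared with another ID, so its length need not be that of the gene alone. The other ID was lower under red light in 5 of the 7 and higher in 2. CMK029C and CMH155C are named here after their values were seen. CMK029C, with 84.4 FPKM under red light and 273 FPKM in its dark control, shares a locus with CMK030C, which had 206 FPKM under red light and 178 FPKM in its dark control. CMH155C, at 69.4 FPKM under red light and 175 FPKM in its dark control, shares one with CMH154C, at 91.0 FPKM under red light and 54.9 FPKM in its dark control. In CMK029C and CMH155C the red ratio ran against that of the ID in the same locus.

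Just inside the red bound lay CMR253C, CMI301C and CMH110C, 2.38-fold, 2.40-fold and 2.40-fold lower under red light. Just outside it lay CMO056C, CMO214C and CMC182C. CMC182C, of 10453 bp, had 10.7 FPKM under red light and 25.4 FPKM in its dark control, against 22.7 FPKM under blue light and 24.0 FPKM in its dark control. CMO056C had 125 FPKM under red light and 297 FPKM in its dark control, and CMO214C 25.3 FPKM under red light and 60.3 FPKM in its dark control. CMR253C, inside, had 40.9 FPKM under red light and 97.6 FPKM in its dark control. All 6 were called lower under red light in the authors' deposited table, so the bound does not mark a break in the values.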

How the data were processed

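Libraries were made from oligo(dT)-selected RNA and sequenced as pairs of 75 bp reads, per the labels' protocols. The submitters' processing notes list Cuffdiff, TopHat2 2.0.5 and TopHat beside Trimmomatic 0.32 and FastQC 0.11.5; neither build nor annotation is stated. The authors deposited FPKM with 1 value per condition, the 2 replicates combined, which hides their spread. The authors' deposited p-values and q-values were used as they stand; the set of tests behind the q-values is not stated.

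Log2 ratios were computed from the deposited FPKM without a pseudocount. Deposited starts lie 1 or 2 below those of RefSeq in 4422 of 4752 matched IDs, with equal ends in 4439, so starts were read as counted from 0 and are printed from 1; locus length is end minus deposited start. Neighbours follow the order of deposited starts. From RefSeq ASM9120v1 were taken gene order, coding lengths, the kind and length of ribosomal RNA entries, and, for the check of starts and ends alone, positions; none of its coordinates is printed, since the build of the table is not named. The code was checked on simulated data. Python 3.11.15, numpy 2.4.6, pandas 2.3.3, scipy 1.17.1 and matplotlib 3.10.9 were used.

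The members and lists were chosen with earlier results of these data known. Genes named are the 10 with the lowest red ratio, the 6 highest in the dark control of red, the 3 nearest to the bound on each side, the 3 longest and 3 shortest loci, exceptions among the calls, and adjacent members. Sequences were not analysed here. Alternatives varied the bounds, the minimum, centring, a pseudocount, the loci kept, length and the q-value.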

Additional observations from a re-analysis of the deposited data

How the results depend on the processing

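No paired analysis was possible because the deposited table holds 1 value per condition, so the replicate numbers have no values of their own and no replicate could be left out. The count of genes follows the bounds. It was 246, of which 238 were called lower under red light, with a red bound of -1, and 62, all called, with a bound of -1.5. A blue window of 0.25 left 61 genes with 60 called, and a dark minimum of 50 FPKM left 81, all called. Centring both ratios on the medians of the eligible genes, -0.32 for red and -0.10 for blue light, left 59 genes with 58 called, of which 47 were among the 130. With the running median over locus length removed, 65 genes met the rule, 61 of them called, with a median locus of 1215 bp; 51 of the 65 were among the 130, and the correction itself takes out genes for being long. The other 49 of 62 values, including the log2 differences of the dark controls and of the lit cells under every alternative, stayed within 1.5 times the reported ones. The set without the ribosomal RNA positions, an alternative chosen after seeing the data, had 126 genes with a median locus of 2705 bp. Depth is unknown and sets no stated limit.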
